A study of Mus musculus with 20 samples.

Results

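Mm004, Mm005 and Mm012 are 3 of the 120 mouse probes on the Sterolgene array, a small spotted array for liver drug metabolism and cholesterol homeostasis. The 3 were chosen from these measurements for a low ratio of treated to untreated RNA in livers lacking both CAR and PXR, beside little mean change in the other genotypes. Their mean log2 ratios in those livers were −0.42, −0.49 and −0.52, so the treated signal was 0.747, 0.714 and 0.699 times that of the untreated pool, relative to the other probes of the array. These values chose the probes, so they are given as a description, and the count of calls over all probes given further on is no test of the 3. No file used here pairs the identifiers with genes, so the probes are called by their identifiers, and no gene, function or sequence is given for them. A probe entered the tests where each genotype had 3 or more arrays with a value for it, which 82 of the 120 mouse probes met, these 3 included.

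The constitutive androstane receptor (CAR) and the pregnane X receptor (PXR) are nuclear receptors of the liver that sense drugs and other foreign compounds. Each pairs with the retinoid X receptor on DNA and switches on cytochrome P450 enzymes, conjugating enzymes and transporters, with target genes that partly overlap. Both are also known to affect bile acid and cholesterol metabolism. TCPOBOP is a synthetic, potent agonist of mouse CAR.

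The study asked how TCPOBOP changes transcripts of drug metabolism and cholesterol homeostasis, and how the changes depend on CAR and PXR. All mice were male C57BL/6J, aged 9 to 12 weeks, and were injected intraperitoneally 12 h before the livers were taken, with TCPOBOP at 10 mg/kg or with its vehicle, corn oil containing 5% DMSO. Each of the 20 arrays set 1 Cy5-labelled treated liver beside Cy3-labelled RNA pooled from 6 vehicle livers of its genotype. There were 6 treated livers of wild type mice (WT) and 6 of mice deficient in CAR (CARKO). Mice deficient in PXR (PXRKO) and mice deficient in both (CAR/PXR) gave 4 each. Each genotype had 1 pool, which counts as 1 control sample, so the spread between arrays leaves out the spread between untreated mice and any error of that pool. How the receptor genes were inactivated is not given in the sources used here, and the deletions could not be checked because no probe is paired with a gene. Dyes were not swapped. Whole liver was used, so fewer cells of a type and less RNA per cell cannot be told apart.

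On 4 arrays (WT 3, WT 5, CARKO 3 and CAR/PXR 3) the protocol text for the treated channel describes the vehicle pool, and on CAR/PXR 3 the pool's genetic background is given as PXR deficient alone. Without those 4 arrays the CAR/PXR means were −0.47 for Mm004, −0.53 for Mm005 and −0.51 for Mm012. Mouse spots had median signals of 226 to 987 intensity units per array in Cy5 and 403.5 to 1136 in Cy3, with 43 to 103 probes well above background in Cy5 and 35 to 94 in Cy3. The lowest Cy3 number, 35, was that of CAR/PXR 1. A probe was well above background where the foreground of most of its spots was over 2 background SDs higher than the surrounding background. The number of arrays limits the precision of every mean.

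All 3 probes were below 0 on every CAR/PXR array. Mm004 had log2 ratios of −0.40, −0.55, −0.28 and −0.45 on CAR/PXR 1 to 4 (mean −0.42 ± 0.11, SD, n = 4). Mm005 had −0.40, −0.59, −0.37 and −0.59 on the same arrays (mean −0.49 ± 0.12). Mm012 had −0.65, −0.44, −0.53 and −0.45 (mean −0.52 ± 0.10). The arrays of this genotype lay close together for each probe, and no array was lowest or highest for all 3: CAR/PXR 2 was the lowest for Mm004 and Mm005 and the highest for Mm012. Leaving out each of the 4 arrays in turn gave means of −0.47 to −0.38 for Mm004, −0.53 to −0.45 for Mm005 and −0.54 to −0.47 for Mm012.

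Falls in CAR/PXR livers passed the limma test over all probes (Benjamini-Hochberg adjusted p under 0.05) for 7 of 82 probes (8.54%), and the 3 are among those 7. Ratios below 0 on every CAR/PXR array were found for 24 of 82 probes (29.3%), the 3 included. A CAR/PXR mean below the means of the other genotypes was found for 24 of 82 (29.3%), again with all 3. The choice of the probes used these ratios, so nothing is read from the counts. Counted from the lowest CAR/PXR mean of the 82, Mm012 was at rank 6, Mm005 at rank 9 and Mm004 at rank 11.

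The lowest 2 of the other falls in CAR/PXR had higher means than the 3 in some other genotype. Mm007, whose CAR/PXR mean was −0.57 ± 0.21, stood at 0.69 ± 0.35 in WT (n = 6) and 0.45 ± 0.28 in PXRKO (n = 4). Mm054, at −0.54 ± 0.13 in CAR/PXR, stood at 0.59 ± 0.44 in CARKO (n = 6). The means of the 3 chosen probes outside CAR/PXR all lay between −0.20 and 0.21. Mm139, also among the 7 falls at −0.43 ± 0.18, came close to that range, with means of 0.24 in WT, 0.19 in CARKO and −0.08 in PXRKO.

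**Figure D1:**
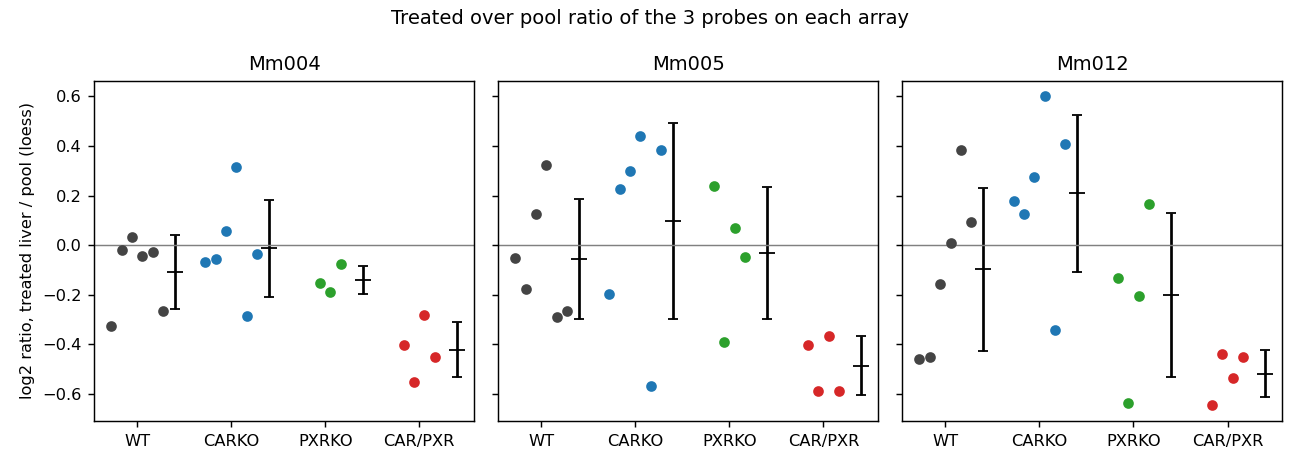
Loess-normalized log2 ratio of treated liver over vehicle pool (vertical axis) for each probe, by genotype, with 1 point per array in order of replicate number and the mean ± SD beside the points. The CAR/PXR points lie between −0.65 and −0.28 in all 3 panels, while the CARKO points of Mm005 span −0.57 to 0.44 and those of Mm012 −0.34 to 0.60.

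In WT livers the ratios of the 3 probes scattered around 0. Mm004 ran from −0.32 to 0.03 with a median of −0.03 (mean −0.11 ± 0.15, n = 6), and was below 0 on 5 of 6 arrays. Mm005 ran from −0.29 to 0.32 with a median of −0.11 (mean −0.06 ± 0.24), below 0 on 4 of 6. Mm012 ran from −0.46 to 0.38 with a median of −0.07 (mean −0.10 ± 0.33), below 0 on 3 of 6. WT 1 and WT 2, at −0.46 and −0.45 for Mm012, lay as low as the CAR/PXR arrays, and WT 1, at −0.32, was below the highest CAR/PXR array for Mm004. For Mm005 the WT and CAR/PXR arrays did not overlap. Single arrays weighed on these means: without WT 1 that of Mm004 was −0.06 and that of Mm012 −0.02. Without WT 2 the mean of Mm012 was −0.03, and without WT 5 it was −0.19. The mean of Mm005 was −0.13 without WT 4, −0.09 without WT 3, −0.03 without WT 2 and −0.01 without either WT 5 or WT 6.

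In CARKO livers the sign of the ratio varied between arrays. CARKO 5 was the lowest CARKO array for each of the 3 probes, at −0.28 for Mm004, −0.57 for Mm005 and −0.34 for Mm012. Over all CARKO arrays Mm004 had a median of −0.05 and a highest value of 0.32 (mean −0.01 ± 0.20, n = 6), Mm005 a median of 0.26 and a highest value of 0.44 (mean 0.10 ± 0.40), and Mm012 a median of 0.23 and a highest value of 0.60 (mean 0.21 ± 0.32). Mm012 was above 0 on 5 of 6 CARKO arrays, and its mean was at rank 70 of 82 from the lowest. Without CARKO 5 the CARKO means were 0.04, 0.23 and 0.32 for Mm004, Mm005 and Mm012. The mean of Mm004 thus changed sign, and those of Mm005 and Mm012 moved by over 1.5 times. Without CARKO 4 the means moved the other way, to −0.08, 0.03 and 0.13, and that of Mm005 was 0.04 without CARKO 6, 0.06 without CARKO 3 and 0.16 without CARKO 1. On CARKO 5 the median log2 ratio of all mouse spots before normalization was −1.09, the lowest of the CARKO arrays, whose other medians were −0.35 to 0.29. Whether that bears on the low values there was not tested.

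In PXRKO livers Mm004 had −0.15, −0.19 and −0.08 on PXRKO 2 to 4 (mean −0.14 ± 0.06, n = 3), as all its spots on PXRKO 1 carried the scanner's negative flags and were left out. Mm005 had 0.24, −0.39, 0.07 and −0.05 on PXRKO 1 to 4 (mean −0.03 ± 0.27). Mm012 had −0.13, −0.64, −0.21 and 0.16 (mean −0.20 ± 0.33). PXRKO 2 was the lowest array for Mm005 and Mm012 and reached into the CAR/PXR range for both, whereas Mm004 did not overlap with CAR/PXR. Without PXRKO 2 the PXRKO mean of Mm005 changed sign, to 0.09, and that of Mm012 came to −0.06. Mm005 came to −0.12 without PXRKO 1 and −0.07 without PXRKO 3, and Mm012 to −0.32 without PXRKO 4.

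Set against each other, the genotypes differed less clearly than the CAR/PXR values alone. Mm004 was lower in CAR/PXR than in WT by a log2 difference of −0.31 ± 0.11 (SE from the fit over all arrays), than in CARKO by −0.41 ± 0.11 and than in PXRKO by −0.28 ± 0.13. For Mm005 the differences were −0.43 ± 0.18, −0.58 ± 0.18 and −0.45 ± 0.20 in the same order. For Mm012 they were −0.42 ± 0.19, −0.73 ± 0.19 and −0.32 ± 0.20. The difference between CAR/PXR and CARKO was the largest in size for each probe. The differences of Mm004 from WT and from PXRKO are no measured changes, since its Cy5 was not well above background on any WT array, nor its Cy3 on any PXRKO array. All these differences were used in the choice and carry no p-value.

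The arrays overlapped in 6 of the 9 comparisons of a probe between CAR/PXR and another genotype. Every CAR/PXR array lay below every WT array for Mm005 alone of the 3, against 14 of all 82 probes (17.1%). Every CAR/PXR array lay below every CARKO array for Mm012 alone, against 5 of 82 (6.1%), and below every PXRKO array for Mm004 alone, against 12 of 82 (14.6%). None of the 3 was below all arrays of the other genotypes, which 2 of the 82 probes were (2.44%). The overlap in the other 6 comparisons came from 1 or 2 arrays each: WT 1 and WT 2, CARKO 5 and PXRKO 2. These counts too rest on ratios used in the choice, and nothing is read from them.

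Over all arrays, the 3 probes had ratios near each other's. Likeness was measured as the root mean square difference of the log2 ratio over the arrays on which both probes had a value. Mm004 differed by 0.214 from Mm047 and by 0.217 from Mm005 over 19 arrays, against a median of 0.416 over its 81 comparisons, and Mm012 was at rank 6. Mm005 was nearest to Mm004, then to Mm139 at 0.278 over 20 arrays, against a median of 0.493, with Mm012 at rank 4. Mm012 was nearest to Mm004 at 0.271 and to Mm005 at 0.29, against a median of 0.516. Mm047 and Mm139 differ from the 3 in the genotypes: Mm047 had a CAR/PXR mean of −0.10 ± 0.11, and Mm139, with its CAR/PXR mean of −0.43, stood at 0.24 ± 0.20 in WT. The CAR/PXR values that chose the probes enter this measure, so the nearness among the 3 is partly set by the choice, and it is given with no test.

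The CAR/PXR ratios are low relative to the other probes on the same arrays, and their means were not below 0 before normalization. Before loess the mean log2 ratios in CAR/PXR were 0.11 ± 0.11 for Mm004, 0.06 ± 0.12 for Mm005 and 0.03 ± 0.08 for Mm012 (n = 4). On the same 4 arrays the median log2 ratio of all mouse spots was 0.72, 0.56, 0.45 and 0.46. Single arrays were slightly below 0 before loess, 1 for Mm004, 1 for Mm005 and 2 for Mm012. Each of the 3 probes was below that median on every CAR/PXR array. The probes were chosen for low ratios on these arrays and the share of all probes so placed was not counted, so nothing is read from this. Loess subtracted on average 0.53, 0.54 and 0.55 from Mm004, Mm005 and Mm012 there.

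In the other genotypes the correction was of another size or sign. The array medians before loess were −2.08 to −0.05 in WT, −1.09 to 0.29 in CARKO and −0.24 to 1.55 in PXRKO. Without any normalization within arrays, the lowest means were those of WT for all 3 probes, at −0.99 for Mm004, −1.09 for Mm005 and −0.91 for Mm012. The order of the genotypes therefore rests on normalization within arrays. CAR/PXR had the lowest mean in 12 of the 13 other settings that gave all genotypes a value, for each probe. The exception was the setting without normalization. With the normalization reported here, 24 of 82 probes (29.3%) had their lowest mean in CAR/PXR. The probes were chosen on these ratios and the settings use the same arrays, so nothing is read from the 12 of 13.

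**Figure D2:**
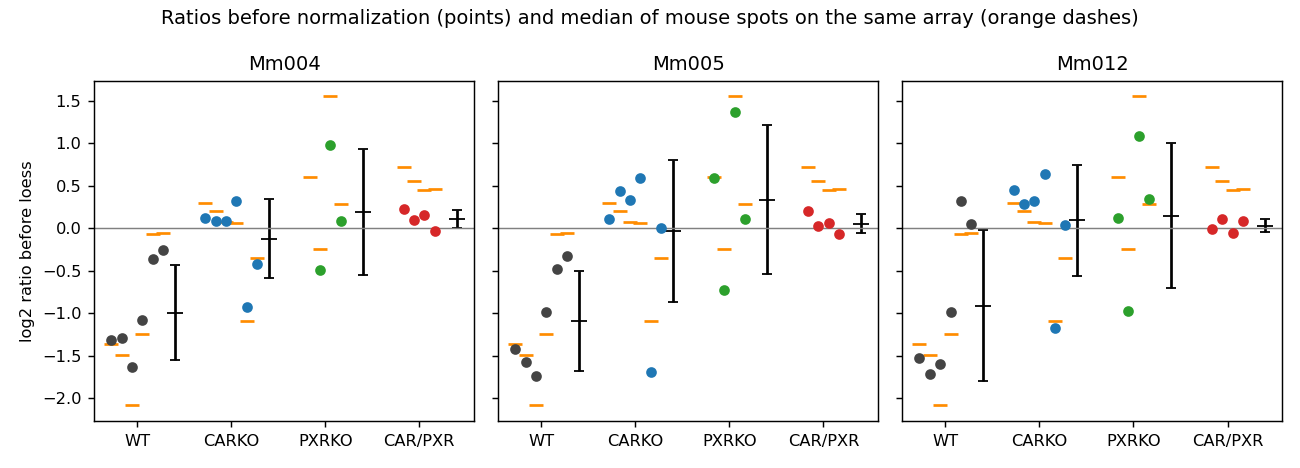
Log2 ratio of treated over pool before normalization (vertical axis) for each probe by genotype, with 1 point per array, the mean ± SD in black, and the median of all mouse spots on the same array as an orange dash. In CAR/PXR the probes lie near 0, from −0.07 to 0.23, under array medians of 0.45 to 0.72.

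The signals behind the ratios were dim. Mean brightness over both channels was a log2 value of 8.34 for Mm004, 8.74 for Mm012 and 8.98 for Mm005, and 4.88%, 18.3% and 29.3% of the tested probes were dimmer. The median over the 82 probes was 9.87. No spot of the 3 probes was saturated. Flags removed 12 of 60 spots of Mm004, 5 of 60 of Mm012 and none of Mm005.

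In Cy5, detection was weakest in WT. Mm004 was not well above background in Cy5 on any of the 6 WT arrays, and was so in Cy3 on 5. Its WT ratio is therefore no measured fold, and no bound is given because the bound came out under 1. In Cy5, Mm004 had 1.15 to 1.34 times its local background on WT 1 to 4, and 3.13 and 3.38 times on WT 5 and WT 6. Mm012 had 0.984 to 1.33 times its background on WT 1 to 4 in Cy5 and 8.96 and 6.09 times on WT 5 and WT 6, and was well above background in both channels on those last 2 arrays. Mm005, the brightest, was well above background in both channels on 4 of 6. Restricted to WT 5 and WT 6, a choice made after the data were seen, the WT means were −0.15 for Mm004, −0.28 for Mm005 and 0.24 for Mm012. The near-zero WT mean of Mm012 thus joined 4 arrays with Cy5 near background and 2 measured arrays above 0, of which WT 5 was above 0 through 1 of its 3 spots, at 1.33 beside −0.20 and 0.01.

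In CAR/PXR livers, Mm004 was well above background in both channels on 2 of 4 arrays, and Mm005 and Mm012 on 3 of 4. In PXRKO these numbers were 0, 1 and 1 of 4 for Mm004, Mm005 and Mm012, and in CARKO 3, 6 and 4 of 6. Mm004 was not well above background in Cy3 on any PXRKO array, so its PXRKO ratio is no measured fold either. Taking only spots well above background in both channels, a setting added after the data were seen, the CAR/PXR means were −0.43 ± 0.21, −0.54 ± 0.13 and −0.49 ± 0.04 on 3 arrays each. The PXRKO means then rested on 1 or 2 arrays, and Mm005 came to −0.35 and Mm012 to −0.33 there, on 2 arrays each, closer to CAR/PXR than with all spots.

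**Figure D3:**
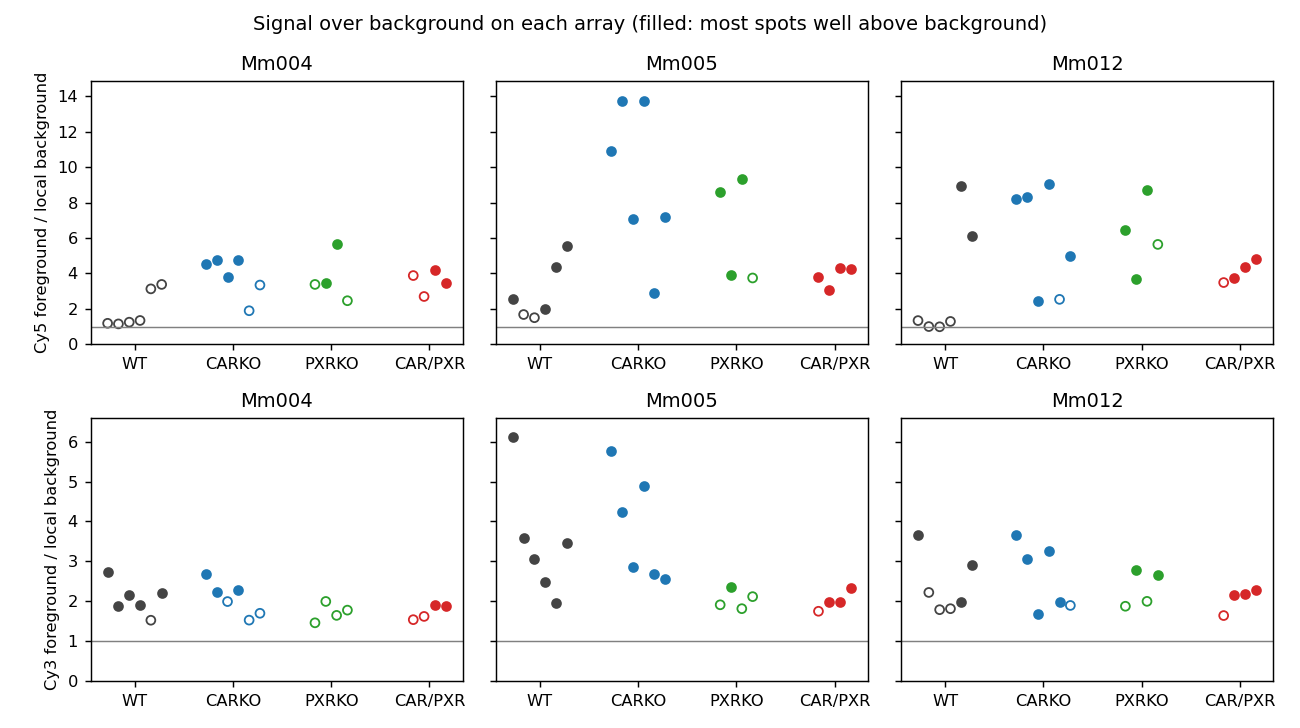
Foreground over local background (vertical axis) in Cy5 (upper panels, treated liver) and Cy3 (lower panels, vehicle pool) for each probe, with 1 point per array by genotype and a line at 1, where signal equals background. Filled points had most spots well above background. WT 1 to 4 lie near 1 in Cy5 for Mm004 and Mm012, and the CAR/PXR Cy3 points lie between 1.54 and 2.33.

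Seen channel by channel, the mean Cy3 signal of the pool was highest in CAR/PXR for each of the 3 probes, though barely so for Mm005. The single-channel values are log2 signals after loess and quantile normalization of the array brightness. Mm004 had a mean Cy3 level of 9.01 ± 0.49 in CAR/PXR (n = 4), against 8.03 ± 0.17 in WT, 8.43 ± 0.41 in CARKO and 8.34 ± 0.11 in PXRKO. Mm012 had 9.47 ± 0.45 in CAR/PXR, against 8.25 ± 0.42, 8.81 ± 0.53 and 8.70 ± 0.25 in the same order. Mm005 had 9.37 ± 0.67 in CAR/PXR and 9.29 ± 0.39 in CARKO, which did not differ beyond their spread, and 8.61 ± 0.27 in WT and 8.57 ± 0.23 in PXRKO. CAR/PXR 1 raised these CAR/PXR means, with Cy3 levels of 9.70 for Mm004, 10.3 for Mm005 and 10.1 for Mm012. No Cy3 spot of the 3 probes was well above background on that array. CAR/PXR 2 to 4 lay at 8.52 to 8.91, 8.88 to 9.36 and 9.14 to 9.39, so the first place of Mm005 rests on CAR/PXR 1.

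In Cy5, the treated livers, Mm004 stood at 8.58 ± 0.55 in CAR/PXR against 8.41 ± 0.56 in CARKO, 8.20 ± 0.09 in PXRKO and 7.92 ± 0.13 in WT. Mm012 stood at 8.95 ± 0.37 in CAR/PXR and 9.01 ± 0.71 in CARKO, above 8.50 ± 0.35 in PXRKO and 8.15 ± 0.64 in WT. Mm005 was highest in CARKO at 9.38 ± 0.59, followed by CAR/PXR at 8.88 ± 0.71, and stood at 8.55 ± 0.21 in WT and 8.53 ± 0.35 in PXRKO. CAR/PXR was lowest in Cy5 for none of the 3, and neighbouring genotypes in each order mostly lay within their SDs. CAR/PXR 1 was the highest CAR/PXR array in Cy5 too, at 9.29 for Mm004, 9.91 for Mm005 and 9.48 for Mm012. CAR/PXR 2 to 4 lay at 7.97 to 8.61, 8.32 to 8.77 and 8.68 to 8.94. The Cy5 of Mm004 was not well above background on any WT array, so its WT level is no measured one.

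Such a Cy3 pattern was common on these arrays. The Cy3 mean was highest in CAR/PXR for 40 of 82 probes (48.8%), the 3 among them, and the Cy5 mean was lowest in CAR/PXR for 6 of 82 (7.32%), none of them the 3. Against the mean of the other genotypes, the CAR/PXR Cy3 level was higher by 0.74 for Mm004, 0.54 for Mm005 and 0.88 for Mm012, with a median of 0.27 over the 82 probes. The same difference in Cy5 was 0.41, 0.06 and 0.40, with a median of 0.28, so that Mm005 was above the median in Cy3 and below it in Cy5. Before normalization, the mean Cy3 foreground was 1.73, 2.01 and 2.06 times the local background in CAR/PXR for Mm004, Mm005 and Mm012, against 2.07, 3.44 and 2.39 times in WT, so the order of these genotypes differs between the scales. The ratio that chose the probes is the difference of these channels, and each genotype's Cy3 values come from 1 pool measured several times, so the pool's own level, the array background and the genotype cannot be told apart.

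**Figure D4:**
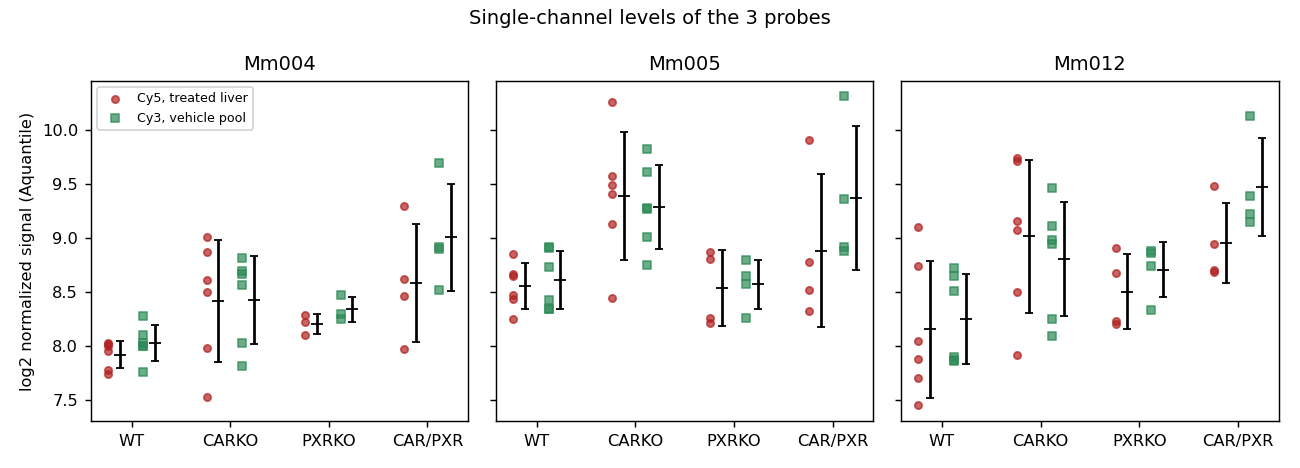
Single-channel log2 signal after normalization (vertical axis) for each probe by genotype, with Cy5 (treated liver) as red circles and Cy3 (vehicle pool) as green squares, 1 point per array, and the mean ± SD in black. For Mm004 the CAR/PXR Cy3 mean of 9.01 lies above the Cy3 means of the other genotypes, 8.03 to 8.43, and the CAR/PXR Cy5 mean of 8.58 is the highest Cy5 mean as well. The first place in Cy5 rests on CAR/PXR 1, at 9.29, while CAR/PXR 2 to 4 lie at 7.97 to 8.61.

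The 3 spots of each probe lie apart on the array, those of Mm005 in the first of 2 printed blocks and those of Mm004 and Mm012 in the other. In CAR/PXR, the single spots of an array spread more than the array means did. An array mean averages up to 3 spots, so a smaller SD between arrays is no sign that the arrays added no spread. The pooled SD between spots was 0.137 for Mm004, 0.182 for Mm005 and 0.158 for Mm012, against SDs between arrays of 0.111, 0.119 and 0.0957. In CARKO the arrays of Mm005 and Mm012 spread more than their spots, with SDs between arrays of 0.396 and 0.318 against 0.194 and 0.174 between spots. For Mm012 in WT the spots spread more than the arrays, at 0.523 against 0.328.

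Odd-numbered replicates lie in an upper and even-numbered ones in a lower position on the slide in every genotype. In the upper position the CAR/PXR means were −0.34 for Mm004, −0.38 for Mm005 and −0.59 for Mm012, and in the lower −0.50, −0.59 and −0.44 (2 arrays each). All were below 0 in either position. In CARKO the upper mean of Mm005 was −0.15 and the lower 0.35 (3 arrays each), and in PXRKO they were 0.15 and −0.22 (2 arrays each). The higher position for Mm005 was thus the lower one in CARKO and the upper one in PXRKO, a contrast that was not tested.

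The authors' deposited table gave lower CAR/PXR values, at −0.77, −0.95, −0.97 and −1.09 for Mm004 on CAR/PXR 1 to 4. For Mm005 the authors' deposited table gave −1.23, −0.83, −1.04 and −1.01, and for Mm012 −1.69, −0.77, −1.09 and −0.89. In that table the median of the 68 probes with enough values was −0.30 in CAR/PXR, and relative to it the means of the 3 probes were −0.64, −0.72 and −0.80. Values of Mm004 were listed there for 2 of 6 WT arrays, 0.05 and 0.26, and its means were −0.20 in CARKO and −0.47 in PXRKO. For Mm005 the means there were −0.45 in WT (n = 5), −0.01 in CARKO and −0.17 in PXRKO. For Mm012 they were 0.07 in WT (n = 4), 0.11 in CARKO and −0.35 in PXRKO. In that table Mm004 was below 0 on all 6 CARKO and all 4 PXRKO arrays, and Mm012 on all 4 PXRKO arrays. The centring of that table is unknown. The settings planned for the CAR/PXR means, leaving out single arrays aside, covered processing, subsets of arrays and fits with a block. All 3 means stayed below 0 in 15 of 15, from −0.95 to −0.34 for Mm004, −1.03 to −0.37 for Mm005 and −1.11 to −0.40 for Mm012. The −0.34 of Mm004 came from the 2 arrays in the upper slide position. Leaving out saturated spots and blocking on slide position could not move these means, as no spot was saturated and the positions were balanced. The unplanned setting without normalization within arrays is not among the 15. The probes were chosen on these ratios, so nothing is read from the count.

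**Figure D5:**
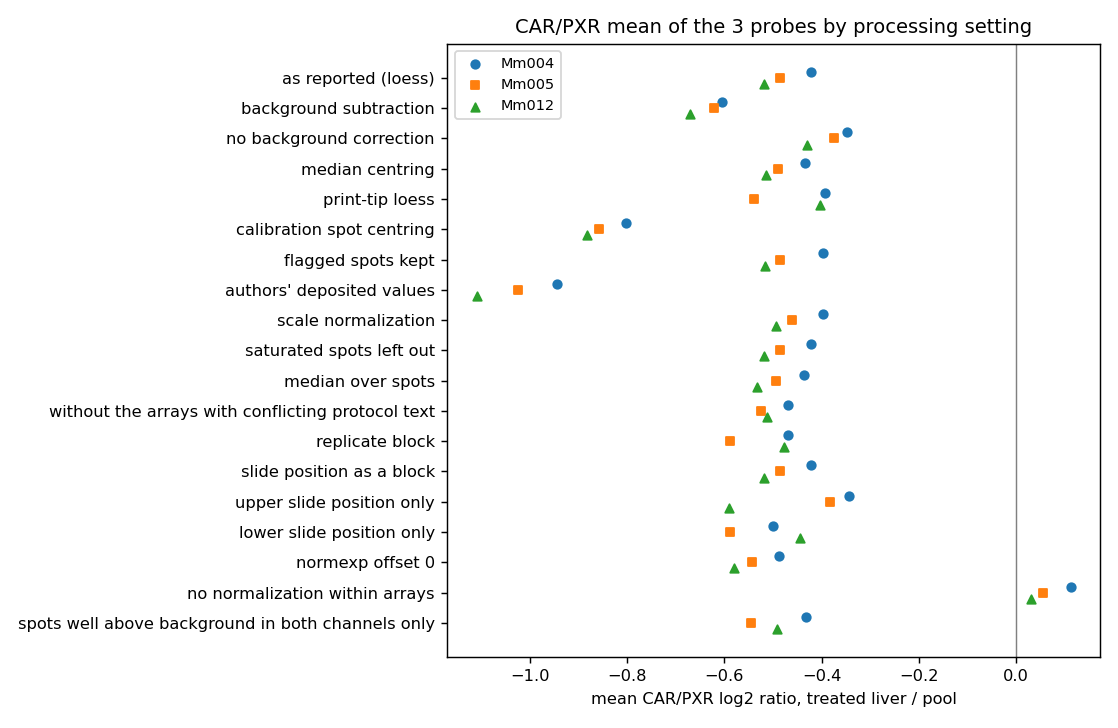
Mean CAR/PXR log2 ratio of treated over pool (horizontal axis) for the 3 probes under each setting of processing, arrays used or block (vertical axis). All settings give means below 0 except the one without normalization within arrays, where they are 0.11, 0.06 and 0.03.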

How the data were processed

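Single TCPOBOP-treated livers (Cy5) were hybridized against vehicle pools (Cy3), per the labels, and groups and replicate numbers came from the titles. The deposited scanner tables hold unnormalized median foreground and local background intensities, with background SDs, per the file headers. They also hold the percent of saturated pixels and a flag score per spot, per the file headers. The image software and the flagging rule were not stated. A table of log2 ratios deposited by the authors, with unstated centring, served as an alternative.

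Intensities were corrected with normexp (offset 50) in limma 3.58.1 (R 4.3.3), normalized by global loess within arrays with control and flagged spots at weight 0, and averaged over unflagged spots, saturated spots included. One mean per genotype was fitted over 20 arrays with lmFit and eBayes (16 residual and 3.12 prior degrees of freedom), with Benjamini-Hochberg adjustment across 82 probes. The script was tested on simulated data. Single-channel levels came from loess and Aquantile. The probes, lists and tests were chosen with earlier results of these data known. Named besides the 3 were the 2 lowest other falls in CAR/PXR and the 2 nearest probes to each by root mean square difference (at least 15 shared arrays).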

Additional observations from a re-analysis of the deposited data

How the results depend on the processing

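The count of falls in CAR/PXR (7 of 82, with 10 rises) depended on the scaling and on the arrays. Centred on calibration spots it was 0 by limma (15 at an unadjusted p under 0.05), with the median of all probes at −0.31, and the CAR/PXR means of Mm004, Mm005 and Mm012 were −0.80, −0.86 and −0.88, or −0.49, −0.55 and −0.57 relative to that median. The authors' deposited table gave 6 falls and 0 rises of 68 probes and means of −0.95, −1.03 and −1.11. Median centring gave 5 falls and 13 rises. Keeping flagged spots gave 15 falls of 120 probes tested, and fitting CAR/PXR arrays alone 16 of 110. Without the 4 arrays with conflicting protocol text 3 falls passed the threshold (1 of them of the 3 probes). The upper slide position gave 0 falls (3 at an unadjusted p under 0.05, limma) and the lower 0 (9 unadjusted), on fewer arrays. Leaving out single arrays gave 4 to 9 falls. It was 4, with 2 of the 3 probes, without any 1 of CAR/PXR 1 to 4. Without PXRKO 2, 3 or 4 it was 6, with Mm005 and Mm012. Mm004 then had values on 2 PXRKO arrays and did not enter the test. Background subtraction gave means of −0.61, −0.62 and −0.67, and print-tip loess −0.40 for Mm012. The falls past the threshold held 2 of the 3 probes under background subtraction and under print-tip loess, and 0 with calibration spots or 1 slide position. In the authors' deposited table and with dim probes left out they held Mm005 and Mm012, as Mm004 did not enter those tests. It did not enter the test of the upper slide position either. Without normalization within arrays, added after the data were seen, the means turned to 0.113, 0.056 and 0.0317. A fit with the replicate number as a replicate block gave 6 falls and means of −0.47, −0.59 and −0.48. The numbers gave no clear pairing of the arrays. Same-numbered arrays of different genotypes had a median correlation of residuals of 0.07, with 11 of 26 pairs over 0.1. For arrays with other numbers the median was −0.0027, with 37 of 122 pairs over 0.1. Of the 20 arrays, 1 correlated best with its own number. In the other genotypes, 11 WT, 10 PXRKO and 1 CARKO values moved by more than the SD between arrays, and 49, 41 and 56 did not. In CAR/PXR 10 moved by more than that SD and kept their sign, 3 moved by more than it and changed sign, and 53 did not move so. Changes of sign were counted in CAR/PXR alone. In each genotype the values that did not move include every mean with a single array left out. In CAR/PXR they also include the settings for saturated spots and for slide position as a block, which could not move the means. Over 9 planned settings the PXRKO mean of Mm004 ran from −0.47 to 0.16. The WT means ran from −0.45 to −0.01 for Mm005 and −0.56 to 0.14 for Mm012. With median centring Mm004 and Mm012 had means of −0.34 and −0.40 in PXRKO, 0.06 and 0.14 in WT, and −0.43 and −0.51 in CAR/PXR. Signal over background limits the WT ratios of Mm004 and Mm012.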

Other observations

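Single spots set some of the array values of Mm012. On WT 5 its 3 spots had Cy5 foregrounds of 2523, 411 and 443 intensity units and log2 ratios of 1.33, −0.20 and 0.01, and the array value, their mean, was 0.38, the highest in WT. On PXRKO 4 the spots had log2 ratios of −0.03, −0.20 and 0.72, and the array value of 0.16 was the highest in PXRKO. On CARKO 3 the first spot had a Cy5 background of 694 against 50 and 51 around the others, and its ratio was −0.08 against 0.38 and 0.53. None of these spots was flagged in the deposited tables.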
